A study of Mus musculus with 12 samples.

Results

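A pair of mouse mutants was compared directly by RNA-seq, with 3 libraries labelled beta-catenin cKO and 3 labelled Emg1 cKO, out of 12 libraries in the series. A cKO, or conditional knockout, loses the gene only where a recombinase is active, and the labels name neither the driver of that recombinase nor the exons removed nor the strain. Each library held total RNA of the caudal region of E10.5 embryos, pooled from 4 to 7 embryos of a genotype, so the spread between libraries is that between pools. Wild type and Vangl2 Lp/Lp libraries of the series did not enter the comparison. A gene lower in beta-catenin cKO may therefore be reduced in that mutant or raised in Emg1 cKO. Which mutant departed from wild type was not tested. Of the 53342 genes in the deposited table, 17090 had more than 1 TPM (a level scaled for transcript length and library size) in at least 3 of these 6 libraries and were tested. The other 36252 were left out.

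Beta-catenin, encoded by Ctnnb1, is the protein that carries canonical WNT signals into the nucleus, where it works with TCF and LEF transcription factors, and it also links cadherins to the cytoskeleton. In the closing spinal neural tube, WNT and BMP signals act on the dorsal side, where the neural folds meet the surface ectoderm, neural crest cells leave the tube, and dorsal interneurons are born. Emg1 encodes a methyltransferase needed to build the small ribosomal subunit. The series title places both genes, with the surface ectoderm transcription factor Grhl3, in the differentiation of the surface ectoderm, and the direct comparison asks where the transcriptomes of the mutants differ from each other.

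The libraries held 32863562 to 36768505 reads in beta-catenin cKO and 36531484 to 38560969 reads in Emg1 cKO. Across genes, log2 values correlated at r of 0.9926 to 0.9929 among the beta-catenin cKO libraries, 0.9908 to 0.9931 among the Emg1 cKO libraries and 0.9868 to 0.9898 between the genotypes, over genes that are not independent of each other. Principal component 1 (43.8% of the variance) placed beta-catenin cKO at 13.7 to 17.9 and Emg1 cKO at -18 to -14.3. On component 2 (18.4%), Emg1 cKO replicate 1 lay at -19.3 and the other Emg1 cKO libraries at 7.8 and 11, so results are given without it where they turn on it. Markers fitted the labelled region: the hindlimb gene Pitx1 lay between 65.8 and 107.8 TPM and the tail bud gene T between 29.7 and 45.4 TPM, while Nkx2-5 of the heart stayed at or below 0.365 TPM in all 6 libraries. Markers of the forelimb (Tbx5, 2.06 to 4.33 TPM) and of heart muscle (Myh6, 0.781 to 1.96 TPM) were present at low levels.

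Emg1 checked the labels. Its mRNA (mm10 chromosome 6, 124704085 to 124712178) had 66.3, 71.9 and 71.3 TPM in the beta-catenin cKO libraries, against 48, 46.5 and 43.4 TPM in the Emg1 cKO libraries. The genotypes did not overlap, and the level was 1.53-fold higher in beta-catenin cKO (log2 fold change 0.61 with a standard error of 0.06, adjusted p = 0.00027 by edgeR's quasi-likelihood test with Benjamini-Hochberg adjustment over all genes tested, as in every p below). Values after ± are standard errors of log2 fold changes. The mRNA of Ctnnb1 (chromosome 9, 120929216 to 120960507) had 814.3, 839.0 and 815.2 TPM in beta-catenin cKO and 905.5, 864.1 and 859.9 TPM in Emg1 cKO. It was lower in all 3 beta-catenin cKO libraries but not called (-0.08 ± 0.04, adjusted p = 0.28), and a count over the whole gene need not show the loss of a few exons. Grhl3 (chromosome 4, 135541888 to 135573630) had 8.51, 8.57 and 7.87 TPM in beta-catenin cKO, against 3.18, 6.23 and 7.61 TPM in Emg1 cKO. Those values did not overlap, yet the Emg1 cKO libraries were spread widely and the difference was not called (0.56 ± 0.25, adjusted p = 0.25). The log2 fold change of Grhl3 was 0.27 without Emg1 cKO replicate 1 and 0.83 without Emg1 cKO replicate 3, called in neither case. Grhl2, a grainyhead-like factor of the same epithelium, was at 2.78, 2.76 and 2.97 TPM in beta-catenin cKO and 1.96, 1.96 and 2.21 TPM in Emg1 cKO (0.48 ± 0.12, adjusted p = 0.051). Missing the threshold there, Grhl2 was called higher by DESeq2 (adjusted p = 0.031), with upper-quartile scaling or no filter (0.047 each), with TPM above 1 required in 6 libraries (0.048) and without Emg1 cKO replicate 3 (0.046).

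At an adjusted p under 0.05, 807 genes were called, 4.72% of those tested: 322 were higher in beta-catenin cKO (1.88%) and 485 lower (2.84%). Of these, 67 and 92 differed at least 2-fold, and the median size of a called change was 0.54 on the log2 scale. The median over all genes tested was -0.0005. All 3 beta-catenin cKO libraries lay beyond all 3 Emg1 cKO libraries in 4094 of the genes tested (24%), below them in 2298 and above them in 1796. Among the 807 called genes, 804 did not overlap between the genotypes, so a lack of overlap adds little to a call. Of the called genes, 670 were protein-coding.

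Gene lists of tissues and pathways differed in the direction of their calls. Genes of neural crest, dorsal neural tube, sensory and dorsal neurons, neurons in general, limb bud mesenchyme and posterior Hox genes were called lower in beta-catenin cKO, with 0 members called higher in any of these 6 lists. Somite genes and WNT targets had 3 members each called lower and 0 higher. Genes of the surface ectoderm were called in both directions, as were those of neural progenitors, retinoic acid, BMP signalling, and WNT ligands and receptors. Glycolytic genes, ribosomal protein genes and Hox genes of earlier groups were called only higher, with limits given below. Genes of planar cell polarity, cholesterol synthesis, mitosis, endothelium, erythroid cells and macrophages had 0 members called, and their values are given at the end.

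**Figure D1:**
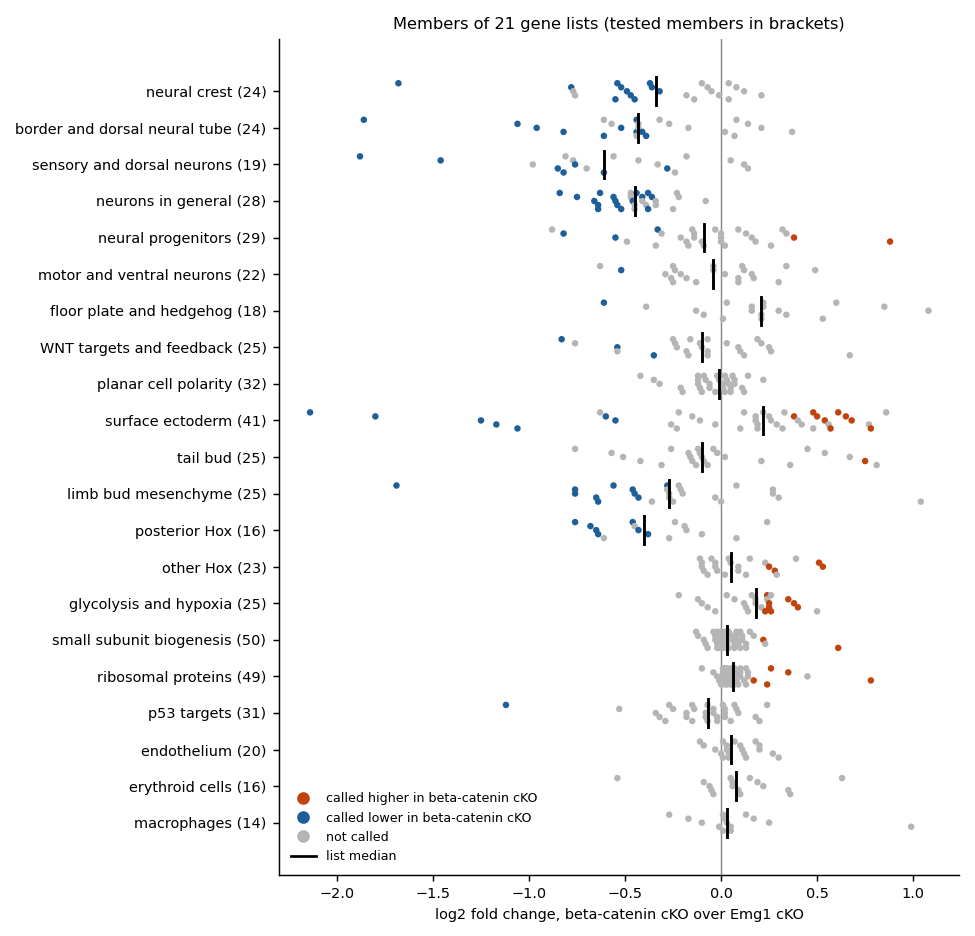
Members of 21 gene lists as points on the log2 fold change of beta-catenin cKO over Emg1 cKO (x axis), one row per list with its number of tested members in brackets; orange points were called higher, blue points lower and grey points not called, and a black bar is the list median. Medians of the crest, dorsal, sensory and neuronal lists lie between -0.61 and -0.34, that of surface ectoderm at 0.22 with called points on both sides, and those of planar cell polarity and small subunit biogenesis at -0.01 and 0.03.

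Neural crest genes were lower in beta-catenin cKO. Of 27 genes of migrating crest and its glial and melanocyte derivatives, 24 were tested, 11 were called lower (45.8%, against 2.84% of all genes), 0 higher and 13 not called, with a median of -0.34. Sox10 (chromosome 15, 79154913 to 79164490), the transcription factor of migrating crest and its glia, had 5.75, 5.79 and 8.94 TPM in the beta-catenin cKO libraries, against 18.8, 23 and 24.2 TPM in the Emg1 cKO libraries. The groups lay far apart, with a 3.2-fold lower level in beta-catenin cKO (-1.68 ± 0.17, adjusted p = 0.00039). Ngfr, the low-affinity neurotrophin receptor carried by crest cells, had 69.9, 66.8 and 64.6 TPM in beta-catenin cKO and 95.5, 85.6 and 96.4 TPM in Emg1 cKO (-0.45 ± 0.06, adjusted p = 0.0018). Ngfr did not overlap between the genotypes either, and differed far less than Sox10. In bulk RNA, fewer cells of a type and less RNA per cell cannot be told apart.

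A further 8 called crest genes differed by 1.25-fold to 1.46-fold. They were Ednrb, the endothelin receptor of melanocyte and enteric precursors, Fabp7, a fatty acid binding protein of glial precursors, the AP-2 factors Tfap2a and Tfap2b, the SoxE factor Sox9, Sox5, the neuregulin receptor Erbb3 and the integrin Itga4. Foxd3, a factor of early crest, was at 2.6, 2.67 and 4.74 TPM in beta-catenin cKO and 5.44, 4.59 and 7.19 TPM in Emg1 cKO, which overlap, and was not called (-0.77 ± 0.26, adjusted p = 0.12). Snai2, which marks crest leaving the neural tube and also mesenchyme, gave 45.1, 43.5 and 44.8 TPM in beta-catenin cKO, against 39.6, 48.5 and 42.6 TPM in Emg1 cKO (0.04 ± 0.09, adjusted p = 0.87). Summed over the list, levels were 1283 to 1326 TPM in beta-catenin cKO and 1446 to 1564 TPM in Emg1 cKO.

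Genes of the dorsal neural tube were also lower in beta-catenin cKO. Of 25 genes of the neural plate border, roof plate and dorsal neural tube, 24 were tested. In this list 10 were called lower (41.7%, beside 2.84% of all genes), 0 higher and 14 not called, with a median of -0.43. Atoh1, the proneural factor of the most dorsal interneurons (chromosome 6, 64729125 to 64731245), had 0.774, 1.16 and 1.47 TPM in beta-catenin cKO, against 3.2, 3.72 and 5.55 TPM in Emg1 cKO. No beta-catenin cKO library reached the lowest Emg1 cKO library, and the level was 3.63-fold lower (-1.86 ± 0.30, adjusted p = 0.0055) on 73 reads in beta-catenin cKO and 295 in Emg1 cKO. Olig3, which marks the dorsal progenitors that give rise to Atoh1-dependent and neighbouring interneurons, had 12.1, 10.8 and 15.2 TPM in beta-catenin cKO and 23.6, 26.5 and 29.9 TPM in Emg1 cKO (-1.06 ± 0.14, adjusted p = 0.0018). Msx3, a homeobox gene of the dorsal tube, had 9.38, 9.62 and 12.1 TPM in beta-catenin cKO and 19.3, 20 and 21.4 TPM in Emg1 cKO (-0.96 ± 0.12, adjusted p = 0.0015). Both were close to 2-fold lower in beta-catenin cKO, with no overlap.

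Zic1 and Zic2, zinc finger factors of the dorsal neural plate and border, were called lower by 1.31-fold and 1.36-fold. Pax3, a paired-box factor of the dorsal tube, crest and dermomyotome, had 19.3, 20 and 20.5 TPM in beta-catenin cKO and 25.8, 26.3 and 27.7 TPM in Emg1 cKO (-0.41 ± 0.06, adjusted p = 0.0033). Lmx1b, Draxin, a guidance protein of the dorsal spinal cord, and Msx1, a BMP-responsive homeobox gene, were lower as well, by 1.52-fold, 1.76-fold and 1.36-fold, and Msx1 was not called without Emg1 cKO replicate 2 (adjusted p = 0.069). The WNT ligands of the roof plate were not called: Wnt1 had 2.73, 3.63 and 5.62 TPM in beta-catenin cKO and 4.09, 5.25 and 5.21 TPM in Emg1 cKO (-0.27 ± 0.25, adjusted p = 0.63). Wnt3a had 3.74, 3.78 and 3.93 TPM in beta-catenin cKO and 3.68, 6.33 and 7.14 TPM in Emg1 cKO (-0.57 ± 0.23, adjusted p = 0.19). Both ligands overlapped between the genotypes. Bmp7, a ligand of the dorsal midline and surface ectoderm, also overlapped (-0.17 ± 0.08, adjusted p = 0.30).

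The promoter of Atoh1 is shown because it was the only one among the windows found for called-lower dorsal, crest, sensory and WNT target genes that held the core of the TCF/LEF binding motif. The motif was searched as CTTTGA, or TCAAAG on the other strand, in windows of 250 bases before to 50 after the start site, taken from RefSeq on GRCm38.p6. Of 32851 windows in the table, 5257 (16%) held it. For the lists, genes were counted over all windows of a gene, unlike the 16%, which counts single windows. A window was found for 7 of the 10 dorsal genes, and 1 of these 7 held the motif. It was held by 0 of 7 crest genes with a window (of 11) and 0 of 5 sensory genes (of 7). For WNT target genes it was 0 of 2 (of 3). The Atoh1 window, chr6:64728875-64729174 on the plus strand, held 2 matches, in capitals. The window of the WNT inhibitor Wif1, chr10:121033754-121034053 on the plus strand, is given beside it as one without a match. A match is a string of letters, not a measured binding site.
Atoh1: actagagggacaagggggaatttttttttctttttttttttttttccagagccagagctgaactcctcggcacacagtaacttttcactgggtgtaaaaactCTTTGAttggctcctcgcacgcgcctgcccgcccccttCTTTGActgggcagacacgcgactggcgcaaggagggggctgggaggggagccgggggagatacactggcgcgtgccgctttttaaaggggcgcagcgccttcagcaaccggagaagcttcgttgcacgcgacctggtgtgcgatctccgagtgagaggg
Wif1: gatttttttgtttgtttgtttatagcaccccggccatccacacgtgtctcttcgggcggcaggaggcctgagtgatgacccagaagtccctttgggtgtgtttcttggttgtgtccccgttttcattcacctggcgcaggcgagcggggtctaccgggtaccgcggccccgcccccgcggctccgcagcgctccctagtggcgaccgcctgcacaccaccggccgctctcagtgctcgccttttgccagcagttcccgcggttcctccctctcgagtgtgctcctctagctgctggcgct

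Sensory neurons and dorsal interneurons gave the lowest median of the lists with more than 10 members tested, -0.61. Of 25 genes, 24 were in the table and 19 tested. Among those tested, 7 were called lower (36.8%, beside 2.84% of all genes), 0 higher and 12 not called. Pou4f1, also known as Brn3a (chromosome 14, 104461676 to 104467999), a factor of sensory neurons and of dorsal interneurons, had 2.87, 2.01 and 2.93 TPM in beta-catenin cKO, against 9.17, 8.49 and 11.3 TPM in Emg1 cKO. The lowest Emg1 cKO library was well above every beta-catenin cKO library, and the level was 3.68-fold lower in beta-catenin cKO (-1.88 ± 0.16, adjusted p = 0.00018). Neurod1, a bHLH factor of early sensory neurons, had 11.4, 10.9 and 9.88 TPM in beta-catenin cKO and 19.7, 17.9 and 20.7 TPM in Emg1 cKO (-0.85 ± 0.10, adjusted p = 0.0013). Tlx3, a selector of excitatory dorsal and sensory neurons, had 1.48, 1.77 and 1.45 TPM in beta-catenin cKO and 2.86, 5.18 and 4.96 TPM in Emg1 cKO (-1.46 ± 0.29, adjusted p = 0.016).

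These genes all separated the genotypes. Eya2, a transcriptional coactivator of placodal and sensory ganglion development that muscle precursors also express, was 1.76-fold lower. Lhx9, a LIM factor of the most dorsal interneurons and of limb mesenchyme, was 1.69-fold lower, and Isl1, which sensory neurons, motor neurons and hindlimb mesenchyme share, 1.21-fold. The early proneural genes Neurog1 (-0.33 ± 0.11, adjusted p = 0.12) and Neurog2 (0.14 ± 0.10, adjusted p = 0.52), which act upstream of the neuronal factors, were not called.

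**Figure D2:**
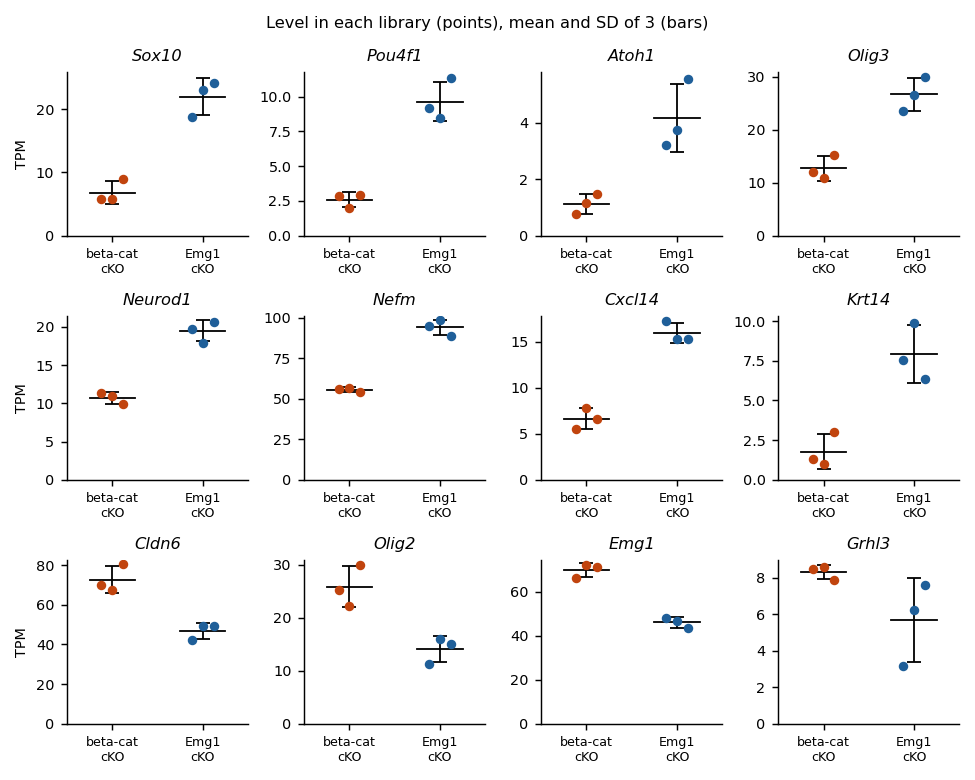
Level in TPM (y axis, starting at 0) of 12 genes in each of the 3 beta-catenin cKO libraries (orange, left) and 3 Emg1 cKO libraries (blue, right); horizontal bars are means and error bars SD of 3 libraries. Sox10, Pou4f1, Atoh1, Olig3, Neurod1, Nefm, Cxcl14 and Krt14 lie lower in every beta-catenin cKO library, Cldn6, Olig2 and Emg1 higher, and the 3 Emg1 cKO values of Grhl3 span 3.18 to 7.61 TPM.

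Genes of neurons in general were often called lower in beta-catenin cKO in the fit of 6 libraries. Of 30 genes, 28 were tested and all 28 had a negative log2 fold change. Among them 16 were called lower (57.1%, beside 2.84% of all genes), 0 higher and 12 not called, with a median of -0.45. With all 12 libraries of the series in one fit, 1 of these genes was called lower, at fold changes that hardly moved: Nefm was at -0.75 in both fits, with an adjusted p of 0.11 in the larger. Nefm, a neurofilament subunit (chromosome 14, 68082590 to 68124846), had 56.2, 56.7 and 54 TPM in beta-catenin cKO, against 95, 98.6 and 88.8 TPM in Emg1 cKO (adjusted p = 8.7e-05 in the fit of 6 libraries). Tubb3, the neuronal beta-tubulin, had 249.9, 232.9 and 224.2 TPM in beta-catenin cKO and 365.2, 364.8 and 368.1 TPM in Emg1 cKO (-0.63 ± 0.05, adjusted p = 0.00017). Dcx, a microtubule protein of young neurons, had 23.4, 25.3 and 20.9 TPM in beta-catenin cKO and 44, 34.7 and 30.3 TPM in Emg1 cKO (-0.64 ± 0.12, adjusted p = 0.010). In all 3 genes the genotypes stood apart, and the Emg1 cKO libraries were spread most for Dcx.

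Stmn3 and Stmn2, which regulate microtubules in growing axons, were 1.8-fold and 1.47-fold lower, Nefl 1.56-fold, the RNA-binding protein gene Elavl3 1.46-fold and Crmp1, a collapsin response mediator, 1.28-fold. Summed over the list, levels were 1054 to 1110 TPM in beta-catenin cKO and 1487 to 1586 TPM in Emg1 cKO. The dorsal tube list summed to 352.8 to 370.6 TPM in beta-catenin cKO and 465.5 to 501.2 TPM in Emg1 cKO, and sensory and dorsal neurons to 251.8 to 265.7 TPM in beta-catenin cKO and 324.2 to 351.0 TPM in Emg1 cKO. Ednrb and Fabp7 of the crest list were likewise not called in the fit of 12 libraries (adjusted p = 0.10 and 0.14).

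Genes of ventral neurons were rarely called. Of 25 genes of motor neurons and ventral interneurons, 22 were tested, 1 was called lower (4.55%, close to the 4.72% of all genes called), 0 higher and 21 not called, with a median of -0.04. The called gene was Lhx5, a LIM factor of several interneuron classes that include dorsal ones, at 7.19, 7.14 and 7.0 TPM in beta-catenin cKO and 9.34, 11.4 and 9.99 TPM in Emg1 cKO (-0.52 ± 0.13, adjusted p = 0.041); 5 of the 6 fits that left out a library, all but that without Emg1 cKO replicate 1, did not call it. Mnx1, the motor neuron homeobox gene, was not called (0.09, adjusted p = 0.76), nor was Chat, the enzyme that makes acetylcholine (-0.04, adjusted p = 0.97). Whether the dorsal and ventral lists differ from each other was not tested.

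Neural progenitor genes were called in both directions. Of 30 genes, 29 were tested, 2 were called higher, 3 lower and 24 not called, with a median of -0.09. Calls in either direction made 17.2%, beside 4.72% of all genes. Olig2, the bHLH factor of motor neuron progenitors in the ventral tube (chromosome 16, 91225550 to 91228677), had 25.3, 22.3 and 30 TPM in beta-catenin cKO, against 11.3, 16 and 15 TPM in Emg1 cKO. All beta-catenin cKO libraries were above all Emg1 cKO libraries, and the level was 1.84-fold higher (0.88 ± 0.14, adjusted p = 0.0056). Prdm8, a regulator of several spinal progenitor domains, was 1.3-fold higher (0.38 ± 0.09, adjusted p = 0.036), a call lost in 5 of 6 fits without a library, all but that without Emg1 cKO replicate 3. On the other side, Prdm13, a dorsal factor that acts beside Ptf1a, had 3.19, 3.03 and 3.26 TPM in beta-catenin cKO and 5.55, 5.25 and 5.99 TPM in Emg1 cKO (-0.82 ± 0.13, adjusted p = 0.0052). Prdm13 did not overlap between the genotypes.

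Hes6, also on the progenitor list, was called 1.26-fold lower (-0.33 ± 0.06, adjusted p = 0.011). That call was lost without beta-catenin cKO replicate 3 or Emg1 cKO replicate 2, and in the fit of 12 libraries (adjusted p = 0.073). Sox2, Nes and Pax6 were among the progenitor genes not called. Sox2 was at -0.21 (adjusted p = 0.24), Nes, an intermediate filament of progenitors, at -0.14 (adjusted p = 0.15), and Pax6 at 0.13 (adjusted p = 0.26). Among 18 genes of floor plate, notochord and hedgehog signalling, 14 had a positive value and the median was 0.21, but 0 were called higher and 1, Lmx1b, lower. Nkx2-9, a hedgehog-responsive ventral gene, had 3.39, 6.96 and 7.17 TPM in beta-catenin cKO and 2.29, 2.01 and 4.04 TPM in Emg1 cKO, which overlap (1.08 ± 0.34, adjusted p = 0.11). Shh itself was at 0.16 (adjusted p = 0.35).

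Genes of surface ectoderm and simple epithelium were called in both directions. Of 47 genes on this list, 41 were tested, 9 were called higher in beta-catenin cKO, 7 lower and 25 not called, with a median of 0.22. Calls in either direction made 39.0%, beside 4.72% of all genes. Cldn6 (chromosome 17, 23679365 to 23682446), a claudin of embryonic epithelia, had 70.2, 67.6 and 80.8 TPM in beta-catenin cKO, against 42.1, 49.2 and 49.2 TPM in Emg1 cKO (0.65 ± 0.09, adjusted p = 0.0028). Cdh3, or P-cadherin, had 72.2, 66.3 and 74.2 TPM in beta-catenin cKO and 43.2, 47 and 56.4 TPM in Emg1 cKO (0.54 ± 0.09, adjusted p = 0.0052). Krt18, a keratin of simple epithelia, had 108.4, 102.6 and 110.6 TPM in beta-catenin cKO and 65, 81.8 and 85.2 TPM in Emg1 cKO (0.48 ± 0.09, adjusted p = 0.015). Each was higher in every beta-catenin cKO library, and in each the lowest library of all was Emg1 cKO replicate 1.

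Esrp1, an epithelial splicing factor, the tight junction gene Cldn3, the membrane protease Prss8, the adhesion molecule Epcam, the transcription factor Sp6 and the integrin activator Fermt1 completed the higher set, at 1.3-fold to 1.72-fold. The lower set held keratins of stratified epithelium and ectodermal signals. Krt14 (chromosome 11, 100203162 to 100207548), a keratin of basal epidermal cells, had 1.3, 1.0 and 3.0 TPM in beta-catenin cKO, against 7.57, 9.87 and 6.35 TPM in Emg1 cKO, a 4.4-fold lower level (-2.14 ± 0.34, adjusted p = 0.0054). Krt5, its usual partner, had 7.77, 7.95 and 5.09 TPM in beta-catenin cKO and 14.6, 17.4 and 11.6 TPM in Emg1 cKO (-1.06 ± 0.20, adjusted p = 0.011). Cxcl14, a chemokine gene of the ectoderm (chromosome 13, 56288643 to 56296551), had 5.54, 7.76 and 6.61 TPM in beta-catenin cKO and 17.2, 15.3 and 15.3 TPM in Emg1 cKO (-1.25 ± 0.15, adjusted p = 0.0012). The 3 genes were lower in every beta-catenin cKO library. Some of these calls were lost when 1 library was left out, which also leaves fewer libraries to test. Krt18 was not called without beta-catenin cKO replicate 1 or 3, Esrp1 without beta-catenin cKO replicate 3 or Emg1 cKO replicate 2, and Krt5 without Emg1 cKO replicate 2 (adjusted p = 0.067). Cldn3 lost its call in 4 of 6 such fits, without beta-catenin cKO replicate 2 or 3 or Emg1 cKO replicate 1 or 2.

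Krt17, Wnt10b, an ectodermal WNT ligand, and the AP-2 factors Tfap2a and Tfap2c were the other genes of the lower set; Krt17 stayed below 1 TPM in beta-catenin cKO. Wnt10b and Tfap2c were not called without beta-catenin cKO replicate 1 or 3 or Emg1 cKO replicate 2. Other ectodermal genes were not called, here given as examples chosen after their values were seen. Trp63, the regulator of epidermal fate, had 4.28, 4.73 and 4.18 TPM in beta-catenin cKO and 4.26, 3.52 and 3.9 TPM in Emg1 cKO (0.19 ± 0.11, adjusted p = 0.40). Cdh1, or E-cadherin, was at 0.19 ± 0.10 (adjusted p = 0.35) and Wnt6 at -0.03 ± 0.12 (adjusted p = 0.94), both overlapping. The summed level of the list was 735.9 to 784.2 TPM in beta-catenin cKO and 542.8 to 690.0 TPM in Emg1 cKO, lowest in Emg1 cKO replicate 1. Without that library, 7 surface ectoderm genes were called higher and 6 lower, and over the fits without 1 library the counts ranged from 2 to 12 and from 2 to 6. Simple epithelium genes such as Epcam, Krt18, Cldn3 and Cldn6 are also expressed by gut endoderm. The gut endoderm list summed to 44.9 to 61.7 TPM in beta-catenin cKO and 33.4 to 44.3 TPM in Emg1 cKO, and all 8 tested members had positive values with a median of 0.50, though 0 were called. The other 6 gut genes in the table, among them Hnf4a and Vil1, were too low to test, and the part of gut tissue in the higher set was not tested. Among 10 tested genes of epidermal differentiation and periderm, 0 were called, with a median of 0.22.

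**Figure D3:**
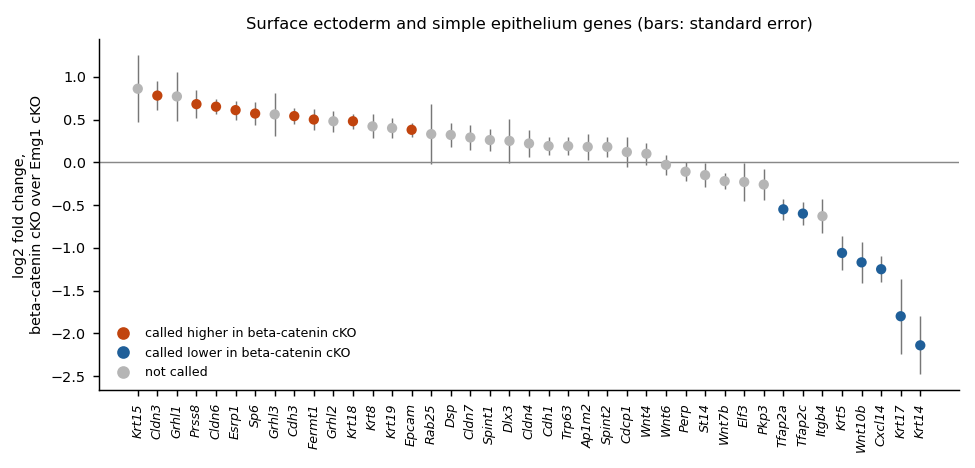
Log2 fold change of beta-catenin cKO over Emg1 cKO (y axis) for the 41 tested genes of surface ectoderm and simple epithelium, in order of value; bars are the standard error, and colours mark the call. The 9 called higher lie between 0.38 and 0.78, and the 7 called lower between -2.14 and -0.55, with Krt14 and Krt17 at the bottom.

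Among direct readouts of WNT signalling, the called genes were feedback inhibitors. Of 27 WNT/beta-catenin targets and feedback regulators, 25 were tested, 3 were called lower (12%, beside 2.84% of all genes), 0 higher and 22 not called, with a median of -0.10. Wif1, a secreted WNT inhibitor (chromosome 10, 121033960 to 121100650), had 3.65, 4.4 and 3.91 TPM in beta-catenin cKO, against 7.56, 7.74 and 6.09 TPM in Emg1 cKO (-0.83 ± 0.16, adjusted p = 0.016). Apcdd1, a membrane WNT inhibitor, had 21.1, 25.7 and 23.7 TPM in beta-catenin cKO and 34.4, 34 and 34.5 TPM in Emg1 cKO (-0.54 ± 0.08, adjusted p = 0.0043). Nkd2, a feedback inhibitor that binds Dishevelled, was 1.27-fold lower (-0.35 ± 0.08, adjusted p = 0.038). All 3 were below every Emg1 cKO library, but Wif1 was not called without beta-catenin cKO replicate 1 or 3 or Emg1 cKO replicate 2, and Nkd2 was not called when any 1 of these 3 libraries or Emg1 cKO replicate 3 was left out.

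The most used WNT readouts were not called. Axin2, a feedback target, had 44.6, 41.9 and 45.2 TPM in beta-catenin cKO and 45.3, 50.5 and 59.4 TPM in Emg1 cKO (-0.23 ± 0.08, adjusted p = 0.16). Lef1 was at -0.18 ± 0.08 (adjusted p = 0.28) and Sp5 at -0.07 ± 0.19 (adjusted p = 0.90). Axin2 and Lef1 were lower in all 3 beta-catenin cKO libraries without passing the adjusted threshold, and Sp5 overlapped. Among ligands and receptors, Fzd10, a frizzled of the dorsal neural tube, had 49.4, 40.6 and 51.1 TPM in beta-catenin cKO and 79.7, 69.8 and 81.9 TPM in Emg1 cKO (-0.70 ± 0.08, adjusted p = 0.0013). Wnt10b was the other gene called lower of the 28 tested, and 2 were called higher: Fzd4 by 1.25-fold and Wnt2b by 2.65-fold. Calls in either direction made 14.3% of these ligands and receptors, beside 4.72% of all genes. Wnt2b had 3.3, 2.27 and 3.45 TPM in beta-catenin cKO and 0.761, 1.15 and 1.52 TPM in Emg1 cKO (1.41 ± 0.26, adjusted p = 0.011). Neither Wnt2b nor Fzd4 was called without beta-catenin cKO replicate 3 or Emg1 cKO replicate 2. Planar cell polarity, the branch of WNT signalling that works without beta-catenin, had 0 of 32 genes called and a median of -0.01; edgeR gave Fzd6 and Celsr3 an adjusted p of 0.058 and 0.053, and DESeq2 called 4 genes lower.

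Hox genes were called lower in the posterior groups and higher in the middle ones. Of 16 posterior Hox genes, 7 were called lower in beta-catenin cKO (43.8%, beside 2.84% of all genes), 0 higher and 9 not called, with a median of -0.40. Hoxc11 (chromosome 15, 102954427 to 102957708) had 26, 30.4 and 27.9 TPM in beta-catenin cKO, against 46.5, 46 and 43.6 TPM in Emg1 cKO (-0.68 ± 0.08, adjusted p = 0.0013). Hoxd12 had 23.8, 27.4 and 25 TPM in beta-catenin cKO and 44.1, 38.7 and 37.4 TPM in Emg1 cKO (-0.65 ± 0.09, adjusted p = 0.0021). Both lay apart between the genotypes, as did Hoxa10, Hoxa11, Hoxa13, Hoxc13 and Hoxd13, lower by 1.3-fold to 1.69-fold. Of 23 Hox genes of earlier groups, 4 were called higher (17.4%, beside 1.88% of all genes), 0 lower and 19 not called, with a median of 0.05. Hoxc6 had 106.6, 96.1 and 113.6 TPM in beta-catenin cKO and 62.2, 70.9 and 89.9 TPM in Emg1 cKO (0.51 ± 0.11, adjusted p = 0.026). Hoxb6, Hoxd8 and Hoxc8 were 1.19-fold to 1.44-fold higher, and Hoxc8 was called although its values overlapped. Hoxc6 was not called without beta-catenin cKO replicate 1 or 3 or Emg1 cKO replicate 2, and Hoxd8 not when any 1 beta-catenin cKO library or Emg1 cKO replicate 2 was left out.

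**Figure D4:**
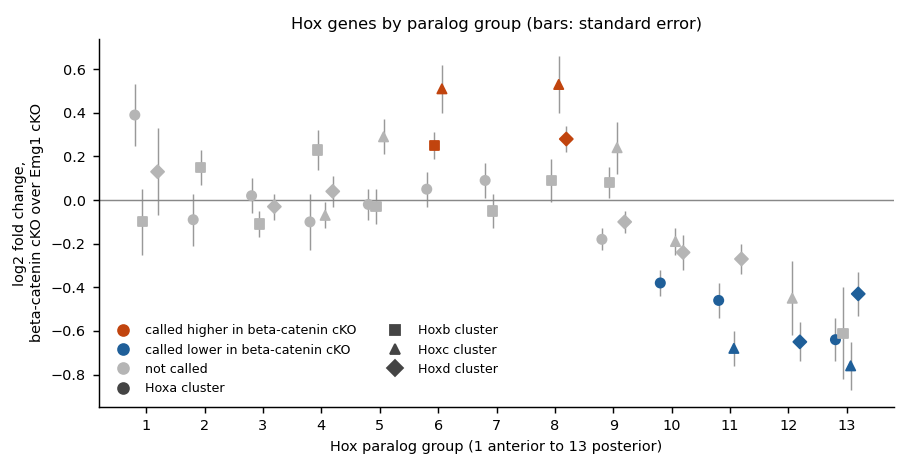
Log2 fold change of beta-catenin cKO over Emg1 cKO (y axis) of the 39 Hox genes by paralog group from anterior to posterior (x axis); symbols mark the cluster, colours the call, and bars the standard error. The 4 genes called higher stand in the middle groups, and the 7 called lower, between -0.76 and -0.38, in the posterior ones.

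Limb bud mesenchyme genes were lower too, on a list that holds 5 of the posterior Hox genes. All 25 genes were tested, and 10 were called lower (40.0%, beside 2.84% of all genes), 0 higher and 15 not called, with a median of -0.27. Shox2, a homeobox gene of proximal limb mesenchyme (chromosome 3, 66971727 to 66981771), had 13, 19 and 11.5 TPM in beta-catenin cKO, against 50.5, 53 and 37.5 TPM in Emg1 cKO. That was 3.22-fold lower with a wide gap between the groups (-1.69 ± 0.18, adjusted p = 0.00050). Tbx4, the T-box gene of the hindlimb, had 34, 42.4 and 32.2 TPM in beta-catenin cKO and 58.5, 65.7 and 61.3 TPM in Emg1 cKO (-0.76 ± 0.10, adjusted p = 0.0018). Pitx1, which specifies the hindlimb, was 1.37-fold lower and Prrx1, a mesenchymal homeobox gene, 1.48-fold lower. Hand1, a factor of lateral and extraembryonic mesoderm, lay on the other side with overlapping values and was not called (1.04 ± 0.29, adjusted p = 0.070). The summed level of the list was 823.8 to 884.5 TPM in beta-catenin cKO and 1008 to 1061 TPM in Emg1 cKO. How much hindlimb tissue each pool held was not measured, and its part in the dorsal, neuronal and Hox results was not tested. Genes of the apical ectodermal ridge, the epithelium at the limb tip, had 0 of 16 called, with a median of 0.10.

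Retinoic acid genes moved in both directions. This morphogen, made by Aldh1a enzymes and broken down by Cyp26 enzymes, patterns the trunk, limb and spinal cord. Aldh1a2, the main synthesis enzyme of somites, had 185.7, 183.4 and 193.6 TPM in beta-catenin cKO, against 141.3, 155.3 and 154.8 TPM in Emg1 cKO (0.33 ± 0.05, adjusted p = 0.0057). Aldh1a3 was 1.76-fold higher at a lower level (0.82 ± 0.14, adjusted p = 0.0067). Cyp26b1, the breakdown enzyme of distal limb mesenchyme (chromosome 6, 84571414 to 84593908), had 14.2, 14.9 and 14 TPM in beta-catenin cKO and 37.1, 30 and 25.4 TPM in Emg1 cKO (-1.09 ± 0.11, adjusted p = 0.00053). None of these 3 genes overlapped between the genotypes. Rarg, a retinoic acid receptor, and Crabp2, a binding protein, were 1.21-fold and 1.19-fold lower. So 2 of 14 tested genes were called higher and 3 lower (35.7% called, beside 4.72% of all genes). Rarg was not called when any 1 beta-catenin cKO library or Emg1 cKO replicate 2 was left out. Cyp26a1, the breakdown enzyme of the tail bud, had 8.12, 7.45 and 9.12 TPM in beta-catenin cKO and 4.27, 5.27 and 5.99 TPM in Emg1 cKO but did not pass (0.67 ± 0.18, adjusted p = 0.057).

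Tail bud progenitor genes were called about as often as all genes. Of 26 genes, 25 were in the table and tested, 1 was called higher (4.00%, beside 4.72% of all genes called), 0 lower and 24 not called, with a median of -0.10. The called gene was Nkx1-2, a homeobox gene of the caudal progenitor zone, at 4.71, 4.66 and 4.84 TPM in beta-catenin cKO and 2.46, 2.36 and 3.66 TPM in Emg1 cKO (0.75 ± 0.19, adjusted p = 0.047). That call was lost in 5 of the 6 fits without a library, all but the one without Emg1 cKO replicate 3. Fgf8, the growth factor of the tail bud and limb ridge, had 13.9, 15 and 14.1 TPM in beta-catenin cKO and 19.4, 17.9 and 20.6 TPM in Emg1 cKO (-0.42 ± 0.12, adjusted p = 0.074). T, also called brachyury, was at -0.16 (adjusted p = 0.60) and Tbx6, of presomitic mesoderm, at -0.02 (adjusted p = 0.98). Among 25 tested somite genes, 3 were called lower: Pax3 (above), Scx, a tendon precursor factor 2.49-fold lower, and Sim2, 3.01-fold lower at a low level. The muscle factors Myod1 (-0.14, adjusted p = 0.88) and Myog (0.19, adjusted p = 0.32) were not called.

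Building of the small ribosomal subunit, the process Emg1 serves, differed in 2 of 50 tested genes, both higher in beta-catenin cKO (4.00%, below the 4.72% of all genes), with a median of 0.03. Emg1 was one. Nat10, an RNA acetyltransferase of the same particle, was 1.16-fold higher (0.22 ± 0.05, adjusted p = 0.037), a call lost when any 1 beta-catenin cKO library or Emg1 cKO replicate 2 was left out. Genes of large subunit assembly and RNA polymerase I had 0 of 35 called and a median of 0.07. Of 31 tested p53 targets, which respond to ribosomal stress among other stresses, 0 were called higher and 30 not called, with a median of -0.07. Only 1 was called lower (3.23%, close to the 2.84% of all genes). It was Pmaip1, a death-promoting BH3-only gene, at 8.14, 7.85 and 7.45 TPM in beta-catenin cKO and 21.2, 18.6 and 11.6 TPM in Emg1 cKO (-1.12 ± 0.19, adjusted p = 0.0068). The classical targets Cdkn1a (-0.27, adjusted p = 0.28) and Mdm2 (-0.14, adjusted p = 0.22) were not called.

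Ribosomal protein genes gave 5 calls of 49 (10.2%), all higher in beta-catenin cKO, beside 1.88% of all genes, with a median of 0.06. Of these calls, 3 were lost when the reads of processed pseudogenes were added to the gene. Why the share of reads in the copies differed between the genotypes was not tested, and the labels name no strain. A processed pseudogene is a copy of an mRNA in the genome. Where it is close in sequence to its parent, short reads can fit both. Rpl26 had 794.9, 1033 and 1162 TPM in beta-catenin cKO, against 616.7, 633.0 and 505.6 TPM in Emg1 cKO (0.78 ± 0.12, adjusted p = 0.0044). Its copies held 24.1% of the reads of the family in beta-catenin cKO and 56.0% in Emg1 cKO. With the reads of the copies added to the gene, the log2 fold change was 0.00 ± 0.05 (adjusted p = 0.98). Rpl3 went to 0.04 (adjusted p = 0.60), with 20.4% of its reads in copies in beta-catenin cKO and 35.8% in Emg1 cKO. Rpl34 went to -0.09 (adjusted p = 0.23), with 15.6% in beta-catenin cKO and 33.7% in Emg1 cKO. Rps18 was called either way. Rps2, not called on its own reads (0.45, adjusted p = 0.081), was called higher with those of its copies (0.14, adjusted p = 0.041).

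The sequences of 2 pairs, given as examples, show how little can separate a gene and its copy. Over the 438 coding bases of Rpl26 (GRCm38 chromosome 11, 68901583 to 68906989), its copy Gm15772 (chromosome 5, 3236431 to 3236868) differed in 2, and over the 354 coding bases of Rpl34 (chromosome 3, 130726831 to 130730398), its copy Rpl34-ps1 (chromosome 6, 71124610 to 71124963) also differed in 2. The stretches below hold 20 bases on each side of the first differing base, which is in capitals, from the GENCODE vM21 transcripts. Reads that miss both positions cannot be assigned by sequence.
Rpl26: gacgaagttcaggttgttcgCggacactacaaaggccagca
Gm15772: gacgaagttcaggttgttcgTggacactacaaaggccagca
Rpl34: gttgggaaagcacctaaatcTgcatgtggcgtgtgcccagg
Rpl34-ps1: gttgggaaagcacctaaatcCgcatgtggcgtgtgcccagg

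Most copies were not called. Of 1396 tested processed pseudogenes, 53 were called lower and 8 higher, beside 2.84% and 1.88% of all genes, and of 247 tested copies of the 49 ribosomal protein genes, 12 were called lower and 0 higher. Rpl34-ps1 averaged 330.1 TPM in beta-catenin cKO and 775.3 TPM in Emg1 cKO (-1.22 ± 0.10, adjusted p = 0.00017), and Gm15772 averaged 1018 and 2388 TPM in the same genotypes without a call (adjusted p = 0.17). The difference with the smallest p of all genes was also that of a copy, Rpsa-ps10, named here after its values were seen. It had 114.3, 118.9 and 110.7 TPM in beta-catenin cKO, against 679.0, 746.2 and 847.8 TPM in Emg1 cKO (-2.72 ± 0.08, adjusted p = 2.4e-08).

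**Figure D5:**
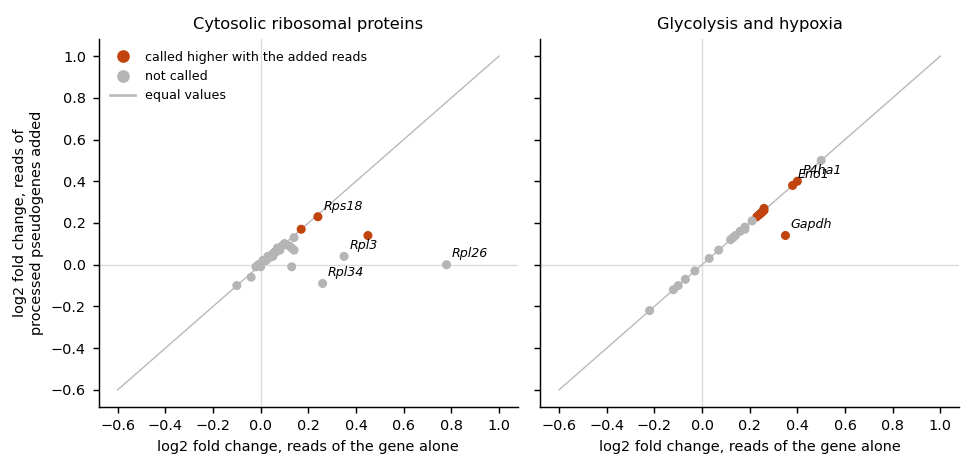
Log2 fold change of beta-catenin cKO over Emg1 cKO for each gene of cytosolic ribosomal proteins (left) and of glycolysis and hypoxia (right), from its own reads (x axis) and with the reads of its processed pseudogenes added (y axis); the line marks equal values, and orange points were called higher with the added reads. Rpl26, Rpl3 and Rpl34 drop to between -0.09 and 0.04, Gapdh drops to 0.14, and nearly all other glycolytic genes stay on the line.

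Glycolytic genes were higher in beta-catenin cKO by small amounts. Of 26 genes of glycolysis and the hypoxia response, 25 were tested. In this list 8 were called higher (32.0%, beside 1.88% of all genes), 0 lower and 17 not called, with a median of 0.18. With reads of the copies added, 9 were called higher and the median was 0.17. Eno1, an enolase (chromosome 4, 150236721 to 150248879), had 1002, 1083 and 1076 TPM in beta-catenin cKO, against 795.2, 834.2 and 821.7 TPM in Emg1 cKO (0.38 ± 0.04, adjusted p = 0.0011). P4ha1, a collagen prolyl hydroxylase induced by low oxygen, had 73.3, 69.6 and 72.3 TPM in beta-catenin cKO and 54.6, 51.8 and 57.2 TPM in Emg1 cKO (0.40 ± 0.05, adjusted p = 0.0018). Slc2a1, the glucose transporter GLUT1, had 233.6, 222.8 and 248.1 TPM in beta-catenin cKO and 195.1, 194.6 and 200.2 TPM in Emg1 cKO (0.26 ± 0.05, adjusted p = 0.0093). All 3 were higher in each beta-catenin cKO library. Aldoa, Gpi1, Pgam1 and Ldha were 1.17-fold to 1.19-fold higher. Gapdh, 1.28-fold higher on its own reads, was at 0.14 ± 0.04 with its copies (adjusted p = 0.049).

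Among the largest differences, few genes belonged to any of these lists. They were chosen among genes whose libraries did not overlap between the genotypes. Symbols of gene models, accession-style names and names with -ps were left out of the choice. Nr1h5, a nuclear receptor gene related to the bile acid receptor (chromosome 3, 102939658 to 102964133), had 10.2, 32.9 and 20.1 TPM in beta-catenin cKO, against 0.441, 0.311 and 2.05 TPM in Emg1 cKO, 22.3-fold higher with wide spread in both genotypes (4.48 ± 0.54, adjusted p = 0.0014). Slc15a2, a peptide transporter gene, had 4.89, 4.37 and 4.87 TPM in beta-catenin cKO and 1.16, 0.823 and 0.168 TPM in Emg1 cKO (2.72 ± 0.39, adjusted p = 0.0029). Myo7a, an unconventional myosin gene known from hair cells, had 9.94, 12.2 and 10.6 TPM in beta-catenin cKO and 2.71, 3.25 and 3.61 TPM in Emg1 cKO (1.78 ± 0.12, adjusted p = 8.7e-05). Abcc9, a subunit of potassium channels, Rec8, a meiotic cohesin, Olfml2a and Gpr50 were 3.44-fold to 4.21-fold higher, and Gpr50 was not called without beta-catenin cKO replicate 1 or 3 or Emg1 cKO replicate 1 or 2.

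Cwc22, a splicing factor gene (chromosome 2, 77881159 to 77946375), had 146.4, 282.2 and 195.7 TPM in beta-catenin cKO and 59.3, 68.1 and 31.8 TPM in Emg1 cKO (1.98 ± 0.27, adjusted p = 0.0022). Spread was wide in both genotypes. Gm20499, named after its values were seen, had 14.4, 12.9 and 13.2 TPM in beta-catenin cKO and 0 reads in all 3 Emg1 cKO libraries, against 181 reads in beta-catenin cKO.

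On the lower side, Npy, the neuropeptide Y gene, had 0.361, 0.0 and 0.0 TPM in beta-catenin cKO and 3.78, 4.6 and 1.75 TPM in Emg1 cKO, resting on 2 reads in beta-catenin cKO and 64 in Emg1 cKO (adjusted p = 0.0084, and 0.053 without beta-catenin cKO replicate 3). Ttll6, which adds glutamate chains to tubulin, had 0.0532, 0.639 and 0.853 TPM in beta-catenin cKO and 5.6, 4.47 and 5.85 TPM in Emg1 cKO (-3.34 ± 0.43, adjusted p = 0.0018). Cort, the cortistatin gene, had 2.63, 1.09 and 2.41 TPM in beta-catenin cKO and 10.1, 11.8 and 10.6 TPM in Emg1 cKO (-2.39 ± 0.31, adjusted p = 0.0018). In these genes the beta-catenin cKO libraries were low throughout. Tlx2, a homeobox gene of crest-derived neurons, and Vax2, a homeobox gene best known from the ventral eye, were 4.28-fold and 4.29-fold lower. Krt14, Pou4f1 and Atoh1, described above, were also among the 8 largest lower changes under the same choice.

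Genes around the mutated loci were counted as well. Within 10 megabases of Emg1, 171 genes were tested, 3 were called higher and 4 lower (4.09%, against 4.72% of all genes). Vwf, of endothelium and platelets, was 1.73-fold higher there, beside Gapdh and the condensin gene Ncapd2, which was not called without Emg1 cKO replicate 2 (adjusted p = 0.051). Within 10 megabases of Ctnnb1, 106 genes were tested, 2 were called higher and 3 lower (4.72%), among them Trak1, Vill and Ulk4; the last 2 each lost their call in 3 or 4 fits without a library, those without beta-catenin cKO replicate 2 or 3 or Emg1 cKO replicate 2 in both genes.

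Several lists held 0 called genes, which does not show that their levels were equal. Endothelium had 0 of 20 genes called with a median of 0.05, though 17 values were positive and 3 negative. Its member Cdh5, at 0.20 (adjusted p = 0.087), was called higher by DESeq2 (0.035), with no filter (0.02), with the replicate block (0.049) and without Emg1 cKO replicate 3 (0.014). Erythroid cells had 0 of 16 called with 0.08, macrophages 0 of 14 with 0.03, mitosis 0 of 20 with 0.00 and cholesterol synthesis 0 of 21 with -0.08. Single calls were Wt1, a gene of intermediate mesoderm and coelomic lining, 1.55-fold higher (0.63 ± 0.10, adjusted p = 0.0057) among 14 nephric genes, Ccne2, a cyclin of S phase entry, among 28 replication genes, Dppa5a among 11 germ cell genes and H2-Ab1 among 13 histocompatibility genes, all higher in beta-catenin cKO. Of these, Ccne2, Dppa5a and H2-Ab1 lost their calls in 3 or 4 of 6 fits without a library, each without beta-catenin cKO replicate 3 or Emg1 cKO replicate 2. Dppa5a also lost its call without Emg1 cKO replicate 1 (adjusted p = 0.063). The heat shock genes Hspa1a and Hspa1b, which share most of their sequence and may share reads, were 2.57-fold and 2.76-fold higher. They were the 2 called of 13 immediate early and heat shock genes (15.4%, beside 4.72% of all genes). Neither was called without beta-catenin cKO replicate 1 or 3 or Emg1 cKO replicate 2. Hspa1a was also not called without Emg1 cKO replicate 1 (adjusted p = 0.077). In the BMP list of 21 tested genes, Bmp5 (1.26-fold) and Smad9 (1.61-fold) were called higher and Msx1 lower (14.3% called, beside 4.72% of all genes). Bmp5 and Smad9 were called in 1 of 6 fits without a library, that without Emg1 cKO replicate 3. The sex mix of the pools varied: Xist had 142.7, 200.7 and 131.2 TPM in beta-catenin cKO and 75.5, 197.3 and 133.8 TPM in Emg1 cKO, and 0 of 5 sex-linked genes were called.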

How the data were processed

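The series measured total RNA of pooled caudal regions by stranded mRNA sequencing, per the labels' protocols. Reads were trimmed with Trimmomatic 0.39 and aligned with STAR 2.7.10b to mm10, per the submitters' processing notes; the counter, its strand setting and the annotation are not named there. The authors deposited 1 table of the series with log2 TPM values, in which TPM of 1 or less is written as 0, and with estimated counts per gene; TPM at or below 1 was rebuilt from the counts, whose ratio to TPM held to within 1.2e-06 on the log2 scale. All 24 value columns matched a sample.

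Estimated counts, as deposited, were rounded to whole numbers. The 6 libraries were fitted without a covariate by the quasi-likelihood F test of edgeR (version 4.0.16, R version 4.3.3) after scaling by TMM, with Benjamini-Hochberg adjustment over 17090 genes and a threshold of 0.05. Gene levels are TPM. DESeq2 1.42.0, limma 3.58.1 on log2(TPM + 1) and log2(TPM + 0.1), a fit of all 12 libraries and leaving out each library were alternatives. Counts were also simulated for this comparison, with the spread of each gene set by the trend over expression level. Among genes with more than 100 expected reads in a library of mean size, 86 of 100 changed 1.5-fold and 99 of 100 changed 2-fold were recovered. In the same simulation 5 unchanged genes were called. Genes whose own spread differs from the trend were not simulated, so recovery in the real pools may be lower. Reads of a processed pseudogene were added to its closest protein-coding gene (at least 90% identity over at least 50% of the copy, by BLAST) in an alternative chosen after seeing the data.

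The members and gene lists were chosen with earlier results of these data known. The genes named include the 8 largest called changes in each direction with a mean of at least 3 TPM in the higher genotype. Those 8 were taken only from genes whose libraries did not overlap, leaving out symbols of gene models, accession-style names and names with -ps. Also named are the called members of each list with the smallest p (5 a direction in the 12 core lists, 2 in the others) and fixed reference genes. Others are given as examples of their list. Separate pools are labelled as separate samples; same-numbered pools were not treated as pairs. A few genes counted in their lists are not reported here by name.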

Additional observations from a re-analysis of the deposited data

How the results depend on the processing

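The totals of 322 genes higher and 485 lower became 515 and 707 with DESeq2, 249 and 336 in the fit of 12 libraries, 154 and 254 with limma on log2(TPM + 1), 131 and 233 on log2(TPM + 0.1), 690 and 940 with no filter on low values, and 117 to 554 and 199 to 584 without 1 library. The lowest counts came without beta-catenin cKO replicate 3 (118 and 199) and Emg1 cKO replicate 2 (117 and 203), the highest without Emg1 cKO replicate 3 (554 and 584). With the replicate block, 493 were higher and 690 lower, and 799 of the 807 calls were shared. Deviations of same-numbered libraries correlated at -0.0822, -0.031 and 0.0472, and those of differently numbered libraries at -0.102 to 0.12. With 3 libraries a genotype, these values cannot show whether same-numbered pools share a litter or day, which the labels do not say. None of the 95 named called genes reversed, but many lost their call. The call was lost by 2 with DESeq2, 16 in the fit of 12 libraries, 24 on log2(TPM + 1) and 27 on log2(TPM + 0.1). Without 1 library, 2 to 31 of them lost it, most without beta-catenin cKO replicate 3 or Emg1 cKO replicate 2 (31 each).

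Counts of list members moved as follows. WNT targets: 1 higher in the fit of 12 libraries, DESeq2, no filter, TPM above 1 in 6 libraries and the replicate block, 0 to 2 without 1 library; 5 lower with no filter, 1 to 4 without 1 library. Neural crest: 6 lower in both log2 fits, 6 to 11 without 1 library. Dorsal tube: 1 higher with DESeq2, upper-quartile scaling, no filter and added pseudogene reads. Ventral neurons: 1 higher with DESeq2 and no filter, 0 to 1 without 1 library; 0 lower in the fit of 12 libraries, 2 with no filter, 0 to 1 without 1 library. Neurons in general: 1 lower in the fit of 12 libraries, 12 to 20 without 1 library. Progenitors: 1 higher in the fit of 12 libraries and both log2 fits, 1 to 2 without 1 library; 1 lower in the fit of 12 libraries, 6 with no filter, 6 with the replicate block, 2 to 5 without 1 library. Surface ectoderm: 4 and 3 higher in the log2 fits, 15 with no filter, 2 to 12 without 1 library; 4 and 3 lower in the log2 fits, 2 to 6 without 1 library. Tail bud: 4 higher with DESeq2, no filter and the replicate block, 2 with TPM above 1 in 6 libraries, 0 in the log2 fits, 0 to 4 without 1 library; 1 lower in the log2 fits, 0 to 1 without 1 library. Small subunit: 1 higher in the log2 fits, 1 to 3 without 1 library. The p53 targets: 1 higher with DESeq2 and the replicate block, 0 to 1 without 1 library; 2 lower with DESeq2, 3 with no filter, 1 to 2 without 1 library. Planar cell polarity: 4 lower with DESeq2, no filter and the replicate block, 1 with added pseudogene reads, 0 to 2 without 1 library; 0 to 1 higher without 1 library. The cause of these shifts was not tested, apart from the fewer samples or the other set of genes tested that a setting brings.

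Values that changed sign were those of uncalled genes. Over the fits without 1 library, the log2 fold change ranged from -0.06 to 0.16 for Hbb-y, -0.05 to 0.13 for Cd68, -0.34 to 0.07 for C1qb, -0.01 to 0.07 for Top2a, -0.04 to 0.0 for Cdc20, -0.01 to 0.02 for Rhoa, -0.06 to 0.61 for Xist and -0.44 to 0.11 for Eif2s3y. Rhoa was also -0.0 with library totals, in the log2 fits and with no filter.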

Other observations

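A few genes outside the lists, named after their values were seen, also separated the genotypes. Upk3b and Lrrn4, both known from mesothelium, were higher in beta-catenin cKO: Upk3b had 16.2, 12.4 and 14.2 TPM in beta-catenin cKO and 3.42, 5.29 and 9.79 TPM in Emg1 cKO (1.21, adjusted p = 0.032). Lrrn4 had 7.39, 8.55 and 9.86 TPM in beta-catenin cKO and 1.3, 2.92 and 5.47 TPM in Emg1 cKO (1.42, adjusted p = 0.045). Neither was called by DESeq2 (adjusted p = 0.079 for Upk3b and 0.12 for Lrrn4), in the fits on log2(TPM + 1) or log2(TPM + 0.1), or when any 1 beta-catenin cKO library or Emg1 cKO replicate 2 was left out. Tbx15, a T-box gene of dermal and limb mesenchyme, had 13.3, 18.8 and 12.8 TPM in beta-catenin cKO and 44.3, 43.3 and 30.5 TPM in Emg1 cKO (-1.39, adjusted p = 0.0012). Hmx1, a homeobox gene of sensory ganglia and craniofacial mesenchyme, had 1.89, 2.44 and 2.32 TPM in beta-catenin cKO and 5.52, 7.18 and 9.68 TPM in Emg1 cKO (-1.73, adjusted p = 0.0033).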
